A study of Mus musculus with 4 samples.

Results

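The genes described here are the WNT ligands (*Wnt*), their Frizzled receptors (*Fzd*) and the secreted proteins that tune them, the R-spondins (*Rspo*), the secreted Frizzled-related proteins (*Sfrp*) and the Dickkopf proteins (*Dkk*). They were chosen by symbol alone, as every gene named for one of these 5 families and a number, which gave 41 of the 24391 genes in the count table: 19 *Wnt*, 10 *Fzd*, 4 *Rspo*, 4 *Sfrp* and 4 *Dkk* genes. Of these, 24 had enough counts to be tested, out of 14550 genes tested in all. The families were chosen with earlier results of these data known. The counts come from RNA-seq of whole pancreas of mouse embryos at E18.5, in 2 libraries from controls and 2 from *Rest* pKO embryos. Both genotypes carried the *Pdx1*-Cre transgene on a mixed strain background with C57BL/6, the controls with wild-type *Rest* and *Rest* pKO with the *Rest* LoxP/LoxP alleles. *Rest* encodes a repressor of neuronal and endocrine genes, and the study compared the genotypes to learn what its loss does in pancreatic progenitors. The *Pdx1* promoter drives Cre in the pancreatic epithelium, so mesenchyme, mesothelium, vessels and blood cells of the same organ are expected to keep *Rest*. Nothing in the labels says whether a library came from 1 embryo or from several. By *Xist* and the Y-linked genes each genotype had 1 female and 1 male library, so its 2 libraries were not from the same embryo. The p-values measure only the spread between these libraries, which includes any difference by sex.

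WNT proteins are lipid-modified ligands that act over short distances. They bind Frizzled receptors together with the co-receptors LRP5 and LRP6, which halts the breakdown of beta-catenin and lets it activate genes with TCF and LEF factors, or they act without beta-catenin on cell polarity and movement through ROR and RYK receptors. R-spondins strengthen the signal by keeping Frizzled on the cell surface, SFRP proteins bind and hold back the ligands, and most DKK proteins block the LRP co-receptors. In the developing pancreas many of these ligands and modulators are made by the mesenchyme and the mesothelium that surround the epithelium, and WNT signals act there on growth and on the formation of the exocrine tissue.

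The sequence directly upstream of the annotated start is shown for the 3 secreted genes with the lowest log2 fold changes in the 24, *Wnt2b*, *Sfrp2* and *Rspo1*. The windows of 250 bases were taken from promoter entries of RefSeq (GRCm38.p6) and placed by exact match on mm9, at chr3:104764628-104764877 on the minus strand for *Wnt2b*, at chr3:83569993-83570242 on the plus strand for *Sfrp2* and at chr4:124663424-124663673 on the plus strand for *Rspo1*. They run 5′ to 3′ along the gene's strand, and capitals mark a CCAAT box (CCAAT) or a GC box (GGGCGG) on either strand, of which neighbouring GC boxes overlap.
Wnt2b: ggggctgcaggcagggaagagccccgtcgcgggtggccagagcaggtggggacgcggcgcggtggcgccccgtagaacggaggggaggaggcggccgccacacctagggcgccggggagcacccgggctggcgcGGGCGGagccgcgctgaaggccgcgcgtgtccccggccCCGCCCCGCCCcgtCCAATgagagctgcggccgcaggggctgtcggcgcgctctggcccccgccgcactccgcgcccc
Sfrp2: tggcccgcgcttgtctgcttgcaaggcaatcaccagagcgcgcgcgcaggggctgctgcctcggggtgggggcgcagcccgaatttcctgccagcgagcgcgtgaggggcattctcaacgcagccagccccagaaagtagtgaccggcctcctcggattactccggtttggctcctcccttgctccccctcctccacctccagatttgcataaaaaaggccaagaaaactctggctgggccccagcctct
Rspo1: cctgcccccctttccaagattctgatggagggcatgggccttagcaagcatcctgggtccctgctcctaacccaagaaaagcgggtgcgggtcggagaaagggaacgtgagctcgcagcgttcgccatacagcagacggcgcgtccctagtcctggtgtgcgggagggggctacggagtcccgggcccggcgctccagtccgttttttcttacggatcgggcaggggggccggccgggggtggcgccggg
The *Wnt2b* window held 3 GC boxes and 1 CCAAT box, 80.8% G or C and 36 CpG. The windows of *Sfrp2* and *Rspo1* held 63.6% and 66.8% G or C with 16 and 22 CpG, and none of the letters searched, which says only that they are not in these windows. Over all 32851 promoter entries, here with 50 bases past the start left out, the medians were 52.4% G or C and 6 CpG. RefSeq entries were found for 27 of the 41 WNT genes, with 30 promoters. The GC box was in 21 of these 30 and in 32.7% of all promoters, the CCAAT box in 10 and in 33.8%, and the TATA box (TATAAA) in 4 and in 12.4%. The core of the TCF and LEF motif (CTTTGAT) was found upstream of *Wnt11* and *Wnt5b* and in 3.21% of all promoters. Of the 2 sides of the RE1 element that REST binds, GGACAGC was found upstream of *Fzd5* and in 5.28% of all promoters, and TTCAGCACC upstream of no WNT gene and in 0.301% of all. All motifs were searched on both strands.

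The libraries held 16936759 to 24134100 counts, so that 3 counts corresponded to 0.137 to 0.179 CPM (counts scaled to a common depth, here always over library sizes adjusted by TMM). *Rest* was counted at 14.2 and 15.7 CPM in control and at 12.1 and 9.16 CPM in *Rest* pKO libraries, which is a log2 fold change of −0.49 with a standard error (SE) of 0.23 and did not pass the test (adjusted p = 0.593, edgeR's quasi-likelihood test with Benjamini-Hochberg adjustment), and its level in whole tissue, summed over exons inside and outside the floxed part, is no readout of the deletion. The 2 *Rest* pKO libraries differed from each other by 64.9 times sampling noise (chi-square per degree of freedom) and the controls by 23.2 times. By *Xist* and the Y-linked genes each genotype had 1 female and 1 male library, control replicate 1 and *Rest* pKO replicate 2 being female. Acinar markers, which define most of the pancreas, took 151482 to 226755 CPM in each library, and of the 5 gut markers *Cdx1* had no count and *Cdx2* no more than 0.0504 CPM. The gut list summed to 33.2 and 32.8 CPM in control and to 12.9 and 50.5 CPM in *Rest* pKO libraries, most of it *Vil1*, which is also made by other epithelia.

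None of the 24 tested WNT genes passed the test between genotypes (adjusted p 0.457 to 0.989, edgeR's quasi-likelihood test with Benjamini-Hochberg adjustment over all genes tested), while 0.0275% of all genes did. DESeq2 called none of the 24 either (lowest adjusted p 0.261), against 0.716% of all genes. At an unadjusted p under 0.05 in edgeR, *Wnt2b* and *Sfrp2* were lower in *Rest* pKO, 2 of 24 where 5.61% of all genes were lower, and none was higher, where 3.26% of all genes were. The log2 fold changes of *Rest* pKO over control ran from −0.90 to 0.47, with 16 below 0 and 8 above, and their median was −0.23, while the median of all genes tested was −0.00477 and 49.5% of them lay above 0. In 9 of the 24, or 37.5%, both *Rest* pKO libraries were below both controls, against 21.2% of all genes. In 3, or 12.5%, they lay above, against 21.5%. The summed level of the 41 genes was 316.1 and 317.2 CPM in control and 260.4 and 277.4 CPM in *Rest* pKO libraries.

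The 24 genes are shown by library in the plot of CPM, and their genotype differences in the plot of log2 fold changes. The first shows how the levels of 1 gene in the 4 libraries lie to each other. The second sets the size of each difference beside its standard error.

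**Figure D1:**
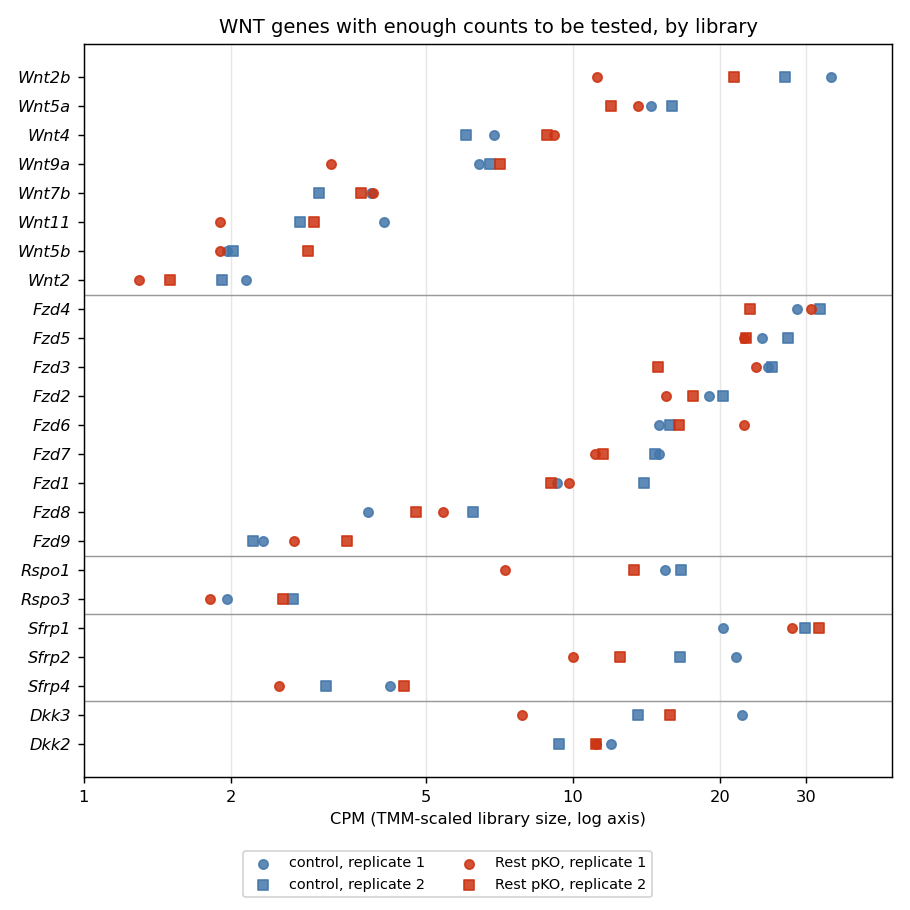
Levels of the 24 tested WNT genes in each library, in CPM over TMM-scaled library sizes on a log axis, with controls in blue, *Rest* pKO in red, replicate 1 as circles and replicate 2 as squares, and lines between the families. For *Wnt2b* both *Rest* pKO points lie left of both controls, at 11.2 and 21.3 CPM against 33.8 and 27.1 CPM, and for *Wnt4* both lie to the right.

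**Figure D2:**
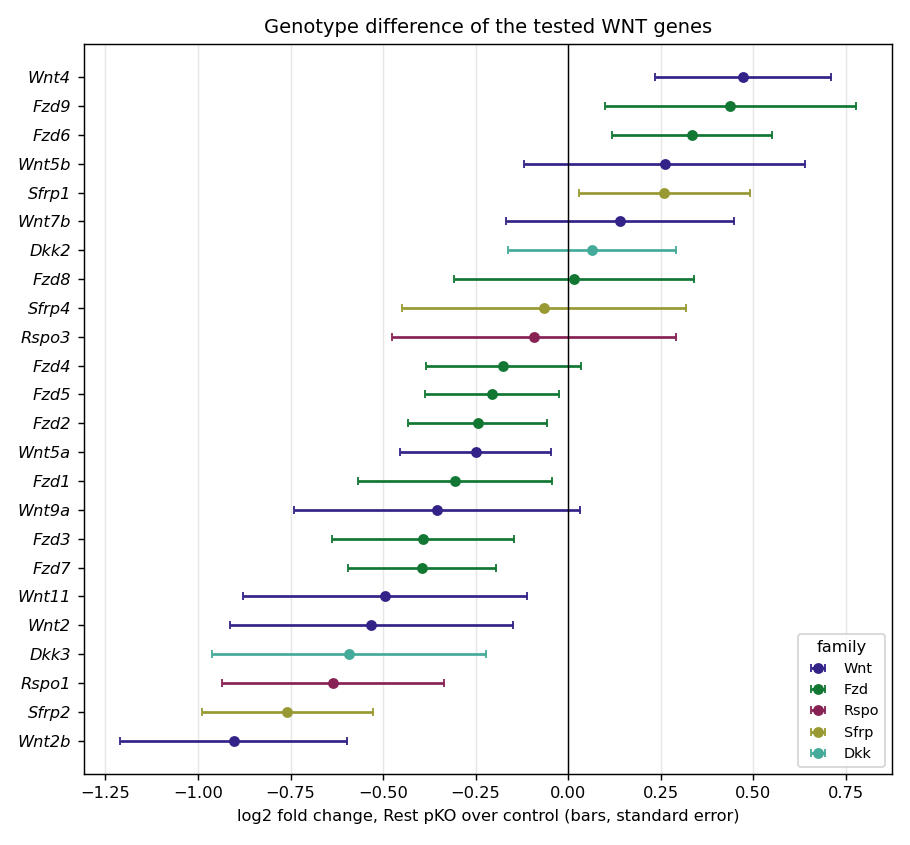
Log2 fold change of *Rest* pKO over control for the 24 tested WNT genes from edgeR, coloured by family, with bars of 1 standard error, in order of size. The values run from 0.47 for *Wnt4* down to −0.90 for *Wnt2b*, and 16 of the 24 lie below 0.

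Of the 19 ligand genes 8 were tested, and *Wnt2b* had the highest mean CPM of them over the 4 libraries. In *Rest* pKO replicate 1 *Wnt5a* was above it in CPM, but below it per kilobase of exon (1.93 against 3.14). *Wnt2b*, a ligand of the beta-catenin branch made by mesodermal cells around gut and lung buds, was counted at 33.8 and 27.1 CPM in control and at 11.2 and 21.3 CPM in *Rest* pKO libraries. Both *Rest* pKO libraries were below both controls, replicate 1 much further than replicate 2. The means were 30.4 ± 4.68 and 16.3 ± 7.14 CPM (mean ± SD, n = 2 each), a log2 fold change of −0.90 (SE 0.31) with an adjusted p of 0.495 from edgeR and 0.261 from DESeq2. The log2 fold change was −0.51 without *Rest* pKO replicate 1 and −1.43 without replicate 2. With the sex of the library as a term in edgeR the log2 fold change was −0.96 and the adjusted p 0.0372. This was the only setting in which any WNT gene passed. In 4 libraries the sex term is the same as pairing control replicate 1 with *Rest* pKO replicate 2 and control replicate 2 with *Rest* pKO replicate 1. It also leaves fewer residual degrees of freedom than the 2 of the fit with genotype alone. Over all settings tried the adjusted p of *Wnt2b* lay between 0.0372 and 0.743. *Wnt2b* lies on chromosome 3 from 104747723 to 104764627 on the minus strand (mm9).

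*Wnt2b* took 45.2% and 40.6% of all *Wnt* CPM in control and 23.9% and 34.8% in *Rest* pKO libraries, and the family summed to 74.6 and 66.8 CPM in control and to 46.9 and 61.3 CPM in *Rest* pKO libraries. *Wnt2*, which acts with *Wnt2b* in lung specification, was low but had the same order, with 2.14 and 1.92 CPM in control and 1.30 and 1.5 CPM in *Rest* pKO libraries (log2 fold change −0.53, SE 0.38). These are raw counts of 36 and 38 against 28 and 33.

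*Wnt5a*, a mesenchymal ligand that mostly acts without beta-catenin, was counted at 14.5 and 15.9 CPM in control and at 13.6 and 12.0 CPM in *Rest* pKO libraries. The groups did not overlap, but the log2 fold change was only −0.25 (SE 0.20). *Wnt4*, known for kidney tubule and ovary formation, was the ligand with the highest log2 fold change. It was counted at 6.91 and 6.05 CPM in control and at 9.13 and 8.84 CPM in *Rest* pKO libraries. Both *Rest* pKO values were above both controls and close together. Its log2 fold change of 0.47 (SE 0.24) had an adjusted p of 0.618 from edgeR and 0.926 from DESeq2. *Wnt4* lies on chromosome 4 from 136833404 to 136855641 on the plus strand.

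*Wnt9a*, a ligand known from joint formation, was at 6.43 and 6.76 CPM in control and at 3.20 and 7.11 CPM in *Rest* pKO libraries. Only *Rest* pKO replicate 1 was low, the groups overlapped, and without that library the log2 fold change went from −0.36 to 0.11. *Wnt7b*, *Wnt11* and *Wnt5b* lay between 1.90 and 4.11 CPM in every library, and their groups overlapped.

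The other 11 *Wnt* genes had at most 12 counts in any library and were not tested. *Wnt3a*, *Wnt7a*, *Wnt8a* and *Wnt8b* had no count in any of them, which at this depth allows up to 0.137 to 0.179 CPM by counting error alone. *Wnt3* had no count in the controls and 1 and 6 counts in *Rest* pKO, and *Wnt10b* had 9, 8, 5 and 10 counts in control replicates 1 and 2 and *Rest* pKO replicates 1 and 2. *Wnt1*, *Wnt6*, *Wnt9b*, *Wnt10a* and *Wnt16* make up the rest.

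Of the 10 receptors 9 were tested, with log2 fold changes from −0.39 to 0.44. The family summed to 142.5 and 158.2 CPM in control and to 143.7 and 123.4 CPM in *Rest* pKO libraries. In *Fzd2*, *Fzd3*, *Fzd5* and *Fzd7* both *Rest* pKO libraries were below both controls, and in *Fzd6* and *Fzd9* both lay above. *Fzd10* had 3 counts in 1 library and none in the others.

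*Fzd7* and *Fzd2*, close relatives that serve both branches of the pathway, had narrow groups. *Fzd7* was counted at 15.0 and 14.7 CPM in control and at 11.1 and 11.5 CPM in *Rest* pKO libraries, with means of 14.9 ± 0.194 and 11.3 ± 0.313 CPM (mean ± SD, n = 2 each). The gap between its groups was wider than the spread within either, and its log2 fold change of −0.39 (SE 0.20) had an adjusted p of 0.618 in edgeR and 0.926 in DESeq2. *Fzd2* was at 19.0 and 20.2 CPM in control and at 15.5 and 17.6 CPM in *Rest* pKO libraries (log2 fold change −0.24). *Fzd1*, the third of these relatives, was at 9.29 and 14.0 CPM in control and at 9.83 and 9.02 CPM in *Rest* pKO libraries. Control replicate 2 was high and the others alike, and without it the log2 fold change went from −0.31 to 0.02.

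*Fzd3*, a receptor of axon guidance and planar polarity, was at 25.1 and 25.5 CPM in control and at 23.6 and 14.9 CPM in *Rest* pKO libraries. Here *Rest* pKO replicate 2 was the low library, unlike in *Wnt2b*, and the log2 fold change was −0.39 (SE 0.25). It was −0.093 without that library and −0.76 without *Rest* pKO replicate 1, where the adjusted p was 0.0612 in edgeR, and its adjusted p in the other settings ran from 0.444 to 1.00. *Fzd6*, its closest relative, was at 15.0 and 15.8 CPM in control and at 22.3 and 16.5 CPM in *Rest* pKO libraries (log2 fold change 0.33, SE 0.22). Without *Rest* pKO replicate 1 the log2 fold change was 0.10, and without replicate 2 it was 0.54. The order of its groups rests on a narrow margin in *Rest* pKO replicate 2 and was lost when plain library sizes were used.

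*Fzd5*, a receptor of gut and eye epithelium, was at 24.3 and 27.5 CPM in control and at 22.3 and 22.6 CPM in *Rest* pKO libraries (log2 fold change −0.21, SE 0.18). *Fzd8*, its close relative, was at 3.81 and 6.25 CPM in control and at 5.42 and 4.78 CPM in *Rest* pKO libraries, with both *Rest* pKO libraries inside the range of the controls. *Fzd4*, the receptor that also binds Norrin in vessels, was at 28.7 and 32.0 CPM in control and at 30.7 and 23.0 CPM in *Rest* pKO libraries (log2 fold change −0.18). *Fzd9* was low, at 2.32 and 2.22 CPM in control and at 2.69 and 3.46 CPM in *Rest* pKO libraries (log2 fold change 0.44, SE 0.34).

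Among the R-spondins, *Rspo1* carried most of the counts, 74.8% to 86.3% of the family's CPM in each library. *Rspo1*, an agonist known for its role in ovary formation, was counted at 15.4 and 16.6 CPM in control and at 7.28 and 13.3 CPM in *Rest* pKO libraries. As in *Wnt2b*, both *Rest* pKO libraries were below both controls and replicate 1 was the lower. The means were 16.0 ± 0.867 and 10.3 ± 4.29 CPM (mean ± SD, n = 2 each), with a log2 fold change of −0.64 (SE 0.30) and an adjusted p of 0.598 from edgeR and 0.767 from DESeq2. Without *Rest* pKO replicate 1 the log2 fold change was −0.26, and without replicate 2 it was −1.13. *Rspo3*, an agonist of vessel and gut stroma, overlapped between genotypes at 1.81 to 2.67 CPM, and *Rspo2* and *Rspo4* had at most 9 counts in a library. *Rspo1* lies on chromosome 4 from 124663674 to 124686343 on the plus strand.

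Of the secreted antagonists 5 of 8 were tested. *Sfrp2*, a WNT-binding protein of mesenchyme, was counted at 21.5 and 16.5 CPM in control and at 10.02 and 12.5 CPM in *Rest* pKO libraries. The groups did not overlap, and the means were 19.0 ± 3.54 and 11.2 ± 1.74 CPM (mean ± SD, n = 2 each). Its log2 fold change of −0.76 (SE 0.23) had the smallest p of the 24 genes, 0.0121 before and 0.457 after Benjamini-Hochberg adjustment in edgeR, and 0.402 after adjustment in DESeq2. Without 1 library at a time the log2 fold change lay between −0.56 and −0.94. *Sfrp2* lies on chromosome 3 from 83570243 to 83578238 on the plus strand and shares 224 exon bases with *Gm16790* on the opposite strand, whose reads cannot be told apart from its own if strand was not used.

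*Sfrp1* had the highest CPM of the *Sfrp* genes in 3 of the 4 libraries. Per kilobase of exon, *Sfrp2* was above it in both controls, at 10.8 and 8.26 against 4.64 and 6.81 CPM. In both *Rest* pKO libraries *Sfrp2* was below it on that scale. *Sfrp1* was counted at 20.3 and 29.8 CPM in control and at 28.1 and 31.9 CPM in *Rest* pKO libraries. Control replicate 1 was low and the groups overlapped. Its log2 fold change was 0.26, with 0.0059 without that library and 0.56 without control replicate 2. The *Sfrp* family summed to 46.7 and 49.6 CPM in control and to 41.0 and 49.3 CPM in *Rest* pKO libraries. *Sfrp4* overlapped as well, at 2.50 to 4.51 CPM, and *Sfrp5* had at most 11 counts.

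*Dkk3*, a divergent Dickkopf that is not known as an LRP blocker, was at 22.2 and 13.6 CPM in control and at 7.88 and 15.8 CPM in *Rest* pKO libraries (log2 fold change −0.59, SE 0.37). *Rest* pKO replicate 1 was low and control replicate 1 high, and the other 2 libraries overlapped. The log2 fold change was −0.20 without control replicate 1, −0.91 without control replicate 2, −0.17 without *Rest* pKO replicate 1 and −1.17 without *Rest* pKO replicate 2. *Dkk2*, which does bind LRP6, was at 12.0 and 9.38 CPM in control and at 11.1 and 11.2 CPM in *Rest* pKO libraries. *Dkk1*, the best known LRP blocker, had 3 and 1 counts in the controls and none in *Rest* pKO, and *Dkk4* had none in any library.

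To compare levels between genes, CPM were divided by the kilobases of exon. On this scale *Fzd4* stood first at 7.76 CPM per kilobase (mean of 4 libraries), followed by *Sfrp2* at 7.56, *Rspo1* at 7.18, *Wnt2b* at 6.54 and *Sfrp1* at 6.29. The ranges of these genes over the libraries overlap, so their order is not resolved. *Fzd3*, *Fzd2*, *Dkk3* and *Fzd6* lay between 4.27 and 5.36, and *Wnt5a* and *Wnt4*, the next ligands after *Wnt2b*, at 1.99 and 1.84. At the low end *Wnt5b*, *Wnt7b*, *Wnt11* and *Wnt2* lay between 0.761 and 0.834. The plot of length-scaled levels shows this order, in which genes next to each other overlap throughout.

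**Figure D3:**
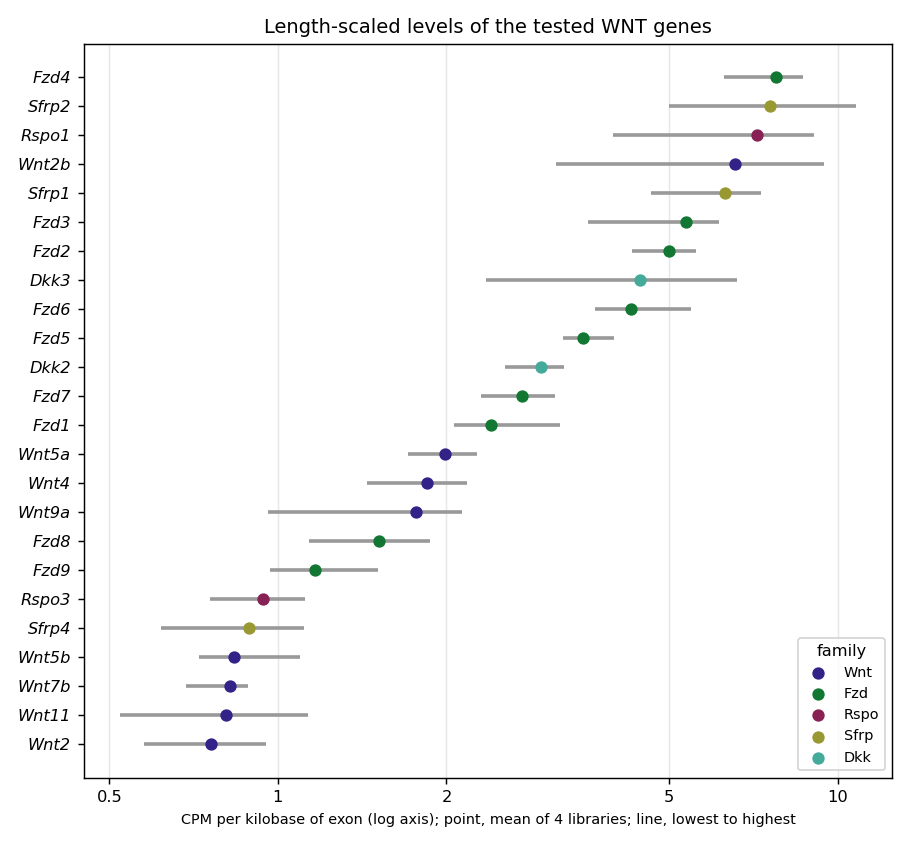
Levels of the 24 tested WNT genes in CPM per kilobase of exon on a log axis, as the mean of the 4 libraries (points, coloured by family) with lines from the lowest to the highest library. *Fzd4* is highest at 7.76 and *Wnt2* lowest at 0.761, and the line of each gene overlaps that of the next.

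*Rest* pKO replicate 1 was the lowest library for 13 of the 24 WNT genes, against 23.1% of all genes tested, and *Rest* pKO replicate 2 for 4, namely *Fzd1*, *Fzd3*, *Fzd4* and *Wnt5a*, against 32.4%. A control was lowest for the other 7. The mean log2 deviations of the mesothelial, mesenchymal, leukocyte and gut lists were also lowest in *Rest* pKO replicate 1, at −0.62, −0.30, −0.75 and −0.57. The gut value is the mean of only 2 tested genes, *Vil1* and *Lgals4*. This did not hold for every marker. *Gpm6a*, *Lum* and *Twist1* were lowest in *Rest* pKO replicate 2, and *Pdgfrb* and *Tcf21* in control replicate 1. *Lgals4* was lowest in control replicate 2, at 0.353 CPM against 0.603 CPM in *Rest* pKO replicate 1, so the gut value rests on *Vil1*. The plot of deviations sets the mesothelial and mesenchymal lists beside 5 of the 13 genes, *Wnt2b*, *Sfrp2*, *Rspo1*, *Dkk3* and *Wnt9a*, picked for that pattern. Mesothelial markers (*Wt1*, *Msln*, *Upk3b*, *Upk1b*, *Lrrn4* and *Gpm6a*) summed to 361 and 305.5 CPM in control and to 155.7 and 226.8 CPM in *Rest* pKO libraries, all 6 had a log2 fold change below 0 with a median of −0.91, and none was at 0. DESeq2 called 2 of the 6, *Wt1* and *Lrrn4* (adjusted p 0.0153 and 0.00443), against 0.716% of all genes. In edgeR none passed after adjustment and 5 were lower at an unadjusted p under 0.05, against 5.61% of all genes. Their mean log2 deviation from the 4-library mean was 0.55 and 0.30 in control and −0.62 and −0.23 in *Rest* pKO libraries, and that of *Wnt2b* 0.64, 0.32, −0.94 and −0.02. The 10 mesenchymal markers summed to 8680 and 7757 CPM in control and to 4599 and 7212 CPM in *Rest* pKO libraries, with 9 below 0 and a median of −0.30. Leukocyte markers had 134.9 and 131.9 CPM in control and 72.6 and 123.2 CPM in *Rest* pKO libraries. In the other direction the 10 endocrine markers summed to 2834 and 1917 CPM in control and to 4233 and 6136 CPM in *Rest* pKO libraries, all with a log2 fold change above 0. All 6 endothelial markers had both *Rest* pKO libraries above both controls, against 21.5% of all genes, with sums of 327 and 411.5 CPM against 477 and 474.2 CPM. The part of these cell types in the values of the WNT genes was not tested, and in bulk tissue fewer cells of a type and less RNA per cell cannot be told apart.

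**Figure D4:**
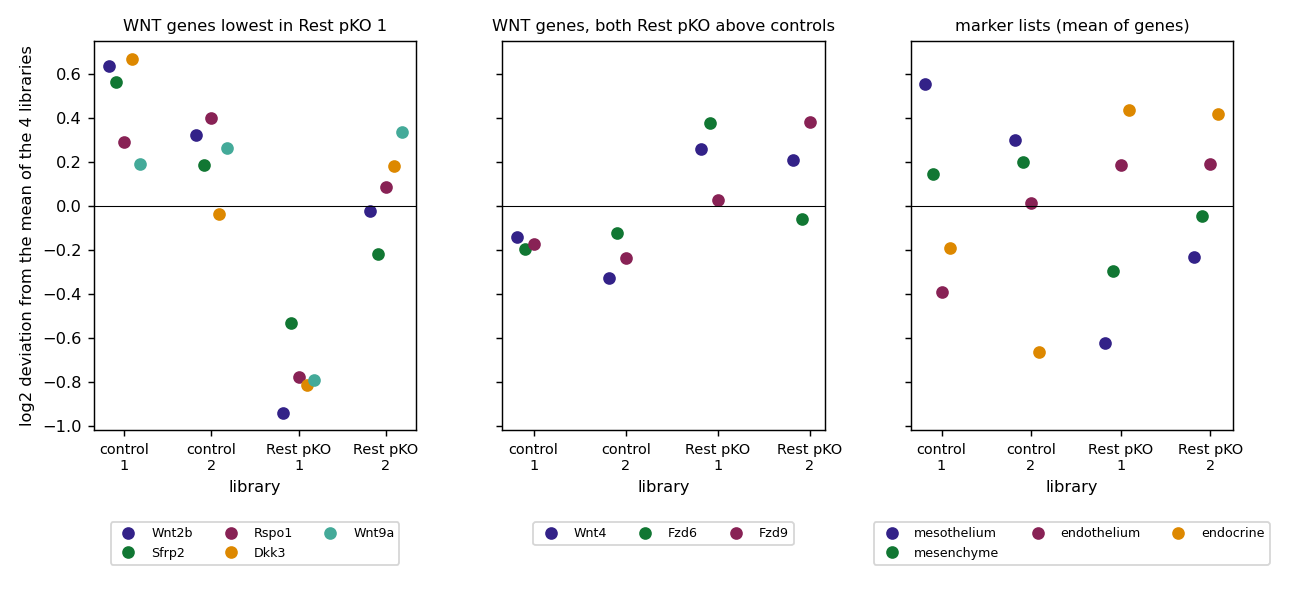
Log2 deviation of each library from the mean of the 4 libraries (log2 of CPM plus 0.1) for 5 of the 13 WNT genes that are lowest in *Rest* pKO replicate 1, picked for that pattern, for the 3 WNT genes with both *Rest* pKO libraries above both controls, and for the mean of 4 marker lists. The mesothelial list lies at 0.55 and 0.30 in control and at −0.62 and −0.23 in *Rest* pKO libraries, and *Wnt2b* at 0.64, 0.32, −0.94 and −0.02 in the same order.

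Around the WNT genes, 71 other genes of the pathway were listed from textbook knowledge, with earlier results of these data known. Of these, 64 were tested. None passed edgeR's quasi-likelihood test after Benjamini-Hochberg adjustment (lowest adjusted p 0.357) or DESeq2 (lowest 0.10), against 0.0275% and 0.716% of all genes. At an unadjusted p under 0.05 in edgeR 6 were lower (5.61% of all genes) and none was higher (3.26%). The log2 fold changes lay below 0 in 40 and above 0 in 24, with a median of −0.10. Both *Rest* pKO libraries were below both controls in 21 genes, or 32.8%, against 21.2% of all genes, and above in 9, or 14.1%, against 21.5%.

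Of 5 genes of WNT secretion 3 lay above 0 and 2 below. *Wls*, the carrier that takes lipid-modified ligands to the cell surface, was at 78.3 and 71.3 CPM in control and at 59.9 and 56.2 CPM in *Rest* pKO libraries, with no overlap (log2 fold change −0.37, SE 0.17). *Notum*, an enzyme that removes the lipid and is itself a target of beta-catenin, was low at 1.01 and 1.06 CPM in control and at 1.81 and 1.73 CPM in *Rest* pKO libraries (log2 fold change 0.77, SE 0.40). *Tmed5*, a cargo protein of the secretory path, was at 69.2 and 55.2 CPM in control and at 53.7 and 16.1 CPM in *Rest* pKO libraries, where replicate 2 stood apart.

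Of 11 tested co-receptors and receptors of R-spondins 5 lay above 0 and 6 below. *Ror2* and *Ror1*, the receptors of *Wnt5a* that act without beta-catenin, both had an unadjusted p under 0.05. *Ror2* was at 15.6 and 19.7 CPM in control and at 11.8 and 12.5 CPM in *Rest* pKO libraries (log2 fold change −0.54), and *Ror1* at 16.1 and 14.2 CPM in control and at 10.1 and 11.0 CPM in *Rest* pKO libraries (−0.52), each with no overlap. *Lrp6*, the co-receptor of the beta-catenin branch, was at 112.5 and 99.2 CPM in control and at 91.1 and 69.8 CPM in *Rest* pKO libraries (log2 fold change −0.40). Among 5 tested other antagonists, 3 above 0 and 2 below, *Sostdc1*, an inhibitor of both WNT and BMP signals, was at 123.6 and 77.3 CPM in control and at 40.3 and 71.8 CPM in *Rest* pKO libraries (log2 fold change −0.84, SE 0.32). *Rest* pKO replicate 1 was its lowest library and control replicate 1 its highest. The log2 fold change was −0.48 without the former, −0.47 without the latter, −1.31 without *Rest* pKO replicate 2 and −1.14 without control replicate 2. *Frzb*, a WNT-binding relative of the SFRP proteins, was at 4.46 and 6.00 CPM in control and at 9.60 and 5.83 CPM in *Rest* pKO libraries (log2 fold change 0.56, SE 0.33), with only *Rest* pKO replicate 1 high.

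Inside the cell, 12 of the 14 genes of the destruction complex and the Dishevelled proteins lay below 0 and 2 above, with a median of −0.15. *Dvl3*, a Dishevelled that relays the signal from Frizzled, was at 36.1 and 37.3 CPM in control and at 20.03 and 21.6 CPM in *Rest* pKO libraries, with narrow groups far apart. Its log2 fold change of −0.82 (SE 0.18) had the lowest p of the whole list, with an adjusted p of 0.357 in edgeR and 0.10 in DESeq2. *Apc*, the scaffold of the destruction complex, was at 104.1 and 86.8 CPM in control and at 80.8 and 63.3 CPM in *Rest* pKO libraries (log2 fold change −0.41, SE 0.20). Of 13 tested nuclear effectors 9 lay below 0 and 4 above. *Bcl9l*, a co-activator of beta-catenin, had the same form, at 37.3 and 36.9 CPM in control and at 23.7 and 21.5 CPM in *Rest* pKO libraries (log2 fold change −0.72, adjusted p = 0.412 in edgeR and 0.208 in DESeq2). *Ctnnbip1*, which keeps beta-catenin from TCF, was on the other side, at 17.6 and 22.3 CPM in control and at 23.8 and 29.5 CPM in *Rest* pKO libraries with no overlap (log2 fold change 0.42, SE 0.21). *Tle3*, a co-repressor of TCF, was at 33.5 and 36.4 CPM in control and at 25.8 and 30.3 CPM in *Rest* pKO libraries (log2 fold change −0.32). *Ctnnb1*, which encodes beta-catenin, overlapped at 535 and 573.5 CPM in control and at 606.2 and 545.3 CPM in *Rest* pKO libraries.

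The 12 tested feedback and target genes of beta-catenin had 8 values above 0 and 4 below, with a median of 0.16. *Axin2*, the usual readout of beta-catenin activity, was among the 4, at 11.1 and 10.9 CPM in control and at 8.44 and 7.52 CPM in *Rest* pKO libraries with no overlap (log2 fold change −0.47, SE 0.22, adjusted p = 0.599 in edgeR). *Ccnd1*, a cyclin with many inputs besides WNT, was at 108.4 and 125.8 CPM in control and at 180 and 123.1 CPM in *Rest* pKO libraries, where only replicate 1 was high. Of 12 genes of planar cell polarity 7 lay below 0 and 5 above, and *Celsr2*, a large cadherin of that system, was at 36.2 and 34.9 CPM in control and at 27.6 and 25.2 CPM in *Rest* pKO libraries (log2 fold change −0.43). *Celsr3*, its relative, was at 7.86 and 4.84 CPM in control and at 8.07 and 10.2 CPM in *Rest* pKO libraries (log2 fold change 0.53, SE 0.31), with both *Rest* pKO values above both controls. *Intu*, a polarity effector of cilia, was at 10.4 CPM in either control library and at 8.39 and 7.93 CPM in *Rest* pKO libraries (log2 fold change −0.35). The plot of the lists sets all of these beside the 24 WNT genes.

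**Figure D5:**
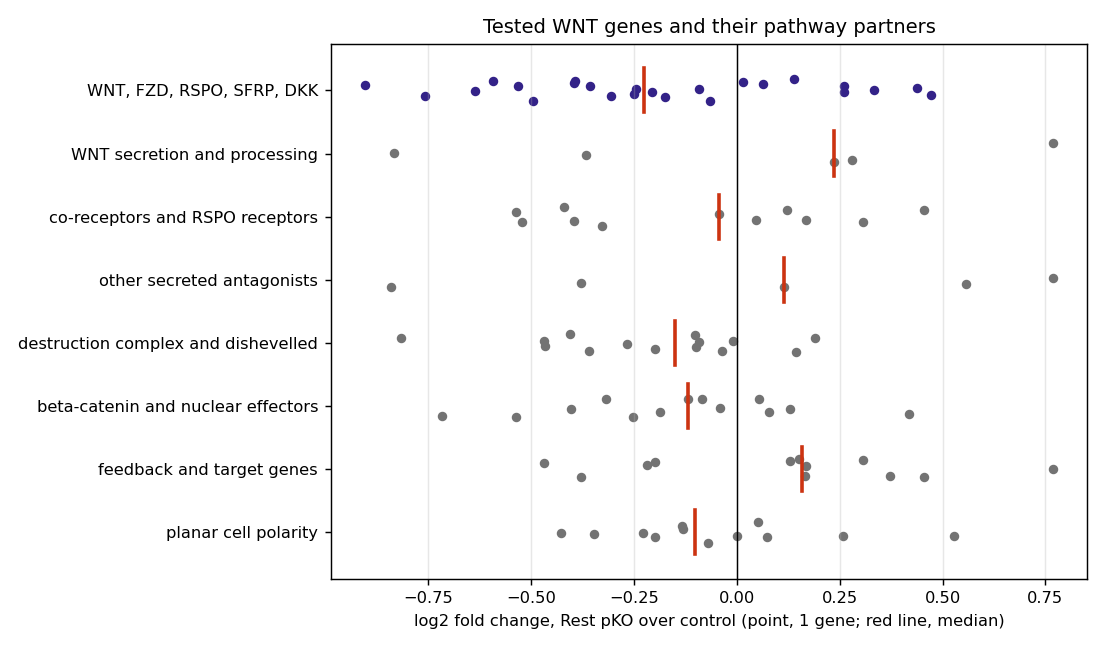
Log2 fold change of *Rest* pKO over control for the 24 tested WNT genes (blue) and for 7 lists of other pathway genes (grey), 1 point a gene, with the median of each list as a red line; *Notum* stands in 3 lists and other genes may stand in 2. The medians run from −0.23 for the WNT genes to 0.24 for the secretion genes.

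Several *Wnt* genes lie side by side in the genome. *Wnt9a* (mean 5.87 CPM) lies on chromosome 11 from 59120430 to 59147054, 16.176 kb from *Wnt3a*, which had no count. *Wnt6* and *Wnt10a* lie 6.197 kb apart on chromosome 1, *Wnt10b* and *Wnt1* 11.707 kb apart on chromosome 15, and *Wnt9b* and *Wnt3* 24.329 kb apart on chromosome 11, and all 6 were too low to test.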

How the data were processed

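RNA-seq was from whole E18.5 pancreas, with 2 control and 2 *Rest* pKO libraries. The methods state 3 pancreas per genotype, and how these became 2 libraries is not stated. The deposited values are raw counts per gene, which the authors made by aligning paired-end reads to mm9 (called NCBI36/mm9) with STAR, keeping unique hits and assigning them to UCSC genes by featureCounts 1.5 (submitters' processing notes). The strand setting, and whether pairs or single reads were the unit, is not given, so overlapping genes cannot be told apart. Groups and numbers came from the sample titles. The heading of a supplementary table calls the controls Rest LSL, against the labels' wild type.

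Counts were tested with edgeR 4.0.16 in R 4.3.3 (filterByExpr, TMM, glmQLFit, glmQLFTest), genotype as the only term, Benjamini-Hochberg adjustment over all 14550 genes tested and a threshold of 0.05. The standard error is the log2 fold change divided by the square root of F. With 2 against 2 libraries no permutation test can pass, so none was run. Alternatives were DESeq2 1.42.0 and its size factors, plain library sizes, no filter, at least 1 CPM in 2 libraries, sex as a term, a block of replicate numbers, and each library left out in turn. Leaving out libraries for the order of the groups was added after seeing the data. The procedure was tested on simulated data. It called 42% and 39.5% of the genes simulated with a log2 fold change of 1 and −1. At 2 and −2 it called 97.3% and 87.8%. Each simulated gene was given the spread between libraries that is usual at its level, while in the data this spread also differs from gene to gene. The rates may therefore be too high for these data. The tested WNT genes ran from −0.90 to 0.47, so not passing does not show that a gene was unchanged.

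Membership follows from the symbol rule alone, but the families and the other lists were chosen with earlier results of these data known. Values per library were to be given for members with a mean of at least 5 CPM, those whose groups do not overlap, those at an unadjusted p under 0.05, up to 3 genes of each pathway list with the smallest p and up to 3 with the highest level. Of the genes named for a high level in a pathway list, only some are printed, so the printed genes lean to those with a small p. *Dkk1*, *Wnt3* and *Wnt10b* lie outside this rule and were picked with their values in view. Of the marker lists, smooth muscle, acinar, duct, glia and neurons, leukocytes, endothelium, endocrine and gut had median log2 fold changes of 0.18, 0.08, −0.02, 0.88, −0.29, 0.31, 0.72 and 0.08, with 0 genes called by edgeR. At an unadjusted p under 0.05, 2 glial and neuronal, 1 endothelial and 7 endocrine genes were higher and 2 leukocyte genes lower. DESeq2 called 2 leukocyte and 4 endocrine genes. Positions and exon lengths came from GENCODE M1 on NCBIM37 (mm9), which placed all 41 members. The limits given for genes without a count cover counting error only. The standard errors come from the fit and include the spread between libraries. Protein sequences were not used here.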

Additional observations from a re-analysis of the deposited data

How the results depend on the processing

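None of the 24 WNT genes passed in edgeR or DESeq2 under any alternative but 1. With sex as a term 1 passed, *Wnt2b*, in a fit that called 247 genes in all, where 4 were called without that term. Of the other pathway genes 1 passed with sex as a term (*Tmed5*). Without *Rest* pKO replicate 1 the log2 fold changes of *Lgr4* and *Tmed5* were −0.99 and −1.94, against −0.33 and −0.83 with all libraries. *Lgr6*, too low to test with all libraries, was at −5.07 without control replicate 1. That value rests on 19 counts in control replicate 2, with 0 and 1 counts in *Rest* pKO libraries. The calls over all genes rose without either control or without *Rest* pKO replicate 1, and fell without *Rest* pKO replicate 2. Each of these fits leaves a single library in 1 of the groups, and the cause was not tested.

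The replicate block called 0 WNT genes (lowest adjusted p 0.268) and 3 at an unadjusted p under 0.05, against 2 without it, and it changed no call. Libraries of the same number deviated together with r = 0.0753 across genes. With 2 libraries in each group the crossed pairing gives the same value with the opposite sign, and libraries of the same number differed in sex. The value therefore cannot tell whether they share a litter or a batch. The count at an unadjusted p under 0.05 in edgeR was 4 with sex as a term, in the fit that called 247 of all genes after adjustment. The share of all genes at an unadjusted p under 0.05 was not taken for the replicate block or the sex term. The counts of 3 and 4 therefore cannot be read as a result about the WNT genes.

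Without 1 library at a time the WNT genes with *Rest* pKO below control numbered 11 to 15, and those above 4 to 7. Fewer libraries separate more easily, and 31.0% to 40.9% of all genes then did so in each direction. Plain library sizes moved all log2 fold changes by −0.0785, more than the values of *Fzd8* (0.02) and *Dkk2* (0.06). With them 11 WNT genes lay below and 2 above. That shift lowers every gene, and the share of all genes was not taken at this scaling. These counts therefore cannot be set against the shares given for TMM.

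Leaving out 1 library at a time turned the sign of 9 genes, whose log2 fold changes then ran from −0.10 to 0.24 in *Dkk2*, −0.57 to 0.0201 in *Fzd1*, −0.39 to 0.0208 in *Fzd4*, −0.30 to 0.42 in *Fzd8*, −0.36 to 0.15 in *Rspo3*, −0.55 to 0.30 in *Sfrp4*, −0.0625 to 0.53 in *Wnt5b*, −0.0302 to 0.32 in *Wnt7b* and −1.04 to 0.11 in *Wnt9a*. Within these ranges *Fzd8* was −0.074 without *Rest* pKO replicate 1, *Rspo3* 0.14 without *Rest* pKO replicate 1 and 0.15 without control replicate 2, and *Sfrp4* 0.16 without control replicate 1.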
